A study of Homo sapiens with 12 samples.

Results

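Transcript levels of 9 interferon-stimulated genes were followed in IMR5, a human line grown from neuroblastoma, a childhood tumour of the sympathetic nervous system, with amplified MYCN. The genes were taken by symbol: IFI44L, IFI6, ISG15, HERC5, PARP9, DTX3L, STAT2, IRF9 and IFIT1. All 9 had a row in the selinexor table (20029 genes) and in the knockdown table (19610 genes). One arm of the study exposed the cells for 24 h to selinexor at 100 nM, which blocks the nuclear export receptor XPO1. Its controls received DMSO, for a time that the labels do not give. The other arm introduced ON-TARGETplus siRNA #10 directed at XPO1, or negative control siRNA, by nucleofection, with extraction 72 h later. There were 3 total RNA libraries in each of the 4 groups. Nothing in the labels states whether replicates are separate cultures of the line. The p-values therefore measure the spread between these libraries, which may be technical.

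Type I interferons bind the receptor pair IFNAR1 and IFNAR2 and activate the kinases JAK1 and TYK2. These phosphorylate STAT proteins, among them STAT2, which acts with IRF9 in the complex ISGF3, and ISGF3 binds interferon-stimulated response elements in the promoters of its target genes. Among the products of those targets are the ubiquitin-like modifier ISG15, its ligase HERC5, the RNA-binding antiviral protein IFIT1, and the PARP9 and DTX3L proteins, which form a heterodimer. STAT2 and IRF9 are themselves inducible by interferon, so the list holds both parts of the signal and its outputs.

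Promoter stretches with a response element core are shown because most of these genes share that element, whichever way their transcripts moved. All 9 symbols matched RefSeq promoters (GRCh38.p14, 250 bases before to 50 after a start, 10 promoters in all, since PARP9 has more than 1). The core was searched as GAAA, any 2 bases and GAAA again, on both strands, with overlapping matches counted. It was found in a promoter of 7 of the 9 genes, and in 3.57% of the 35116 RefSeq promoters of the same length. STAT2 and IRF9 had no match to these letters in this window. The core of the gamma-activated site, TTCNNNGAA, was found for IRF9 alone among the 9 and in 7.66% of all promoters. The lines below are read 5′ to 3′ on the strand of the first gene named and end before that gene's start. Capitals mark the response element core, which appears as its reverse complement where it lies on the other strand. IFI44L (chr1:78620254-78620414, plus strand) carries 2 copies of GAAAAAGAAA. IFI6 (chr1:27672246-27672378, minus strand) carries 3 cores. ISG15 (chr1:1013354-1013429, plus strand) has a pair of cores that overlap. HERC5 (chr4:88456964-88457084, plus strand) has 3 on the other strand, of which the first and second overlap. IFIT1 (chr10:89392477-89392559, plus strand) has 2 on the other strand. PARP9 (chr3:122564302-122564371, minus strand) and DTX3L are transcribed away from each other, and the single core found for each is the same 10 bases, at chr3:122564332-122564341. The line is on the PARP9 strand, opposite to DTX3L, and its core spans the DTX3L start.
IFI44L: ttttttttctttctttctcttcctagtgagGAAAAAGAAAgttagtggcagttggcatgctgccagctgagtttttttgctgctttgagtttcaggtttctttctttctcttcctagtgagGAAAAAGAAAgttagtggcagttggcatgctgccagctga
IFI6: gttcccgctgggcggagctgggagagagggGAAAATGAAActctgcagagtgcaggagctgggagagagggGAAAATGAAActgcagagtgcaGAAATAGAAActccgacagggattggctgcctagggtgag
ISG15: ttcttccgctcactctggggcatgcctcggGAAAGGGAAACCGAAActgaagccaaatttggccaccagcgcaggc
HERC5: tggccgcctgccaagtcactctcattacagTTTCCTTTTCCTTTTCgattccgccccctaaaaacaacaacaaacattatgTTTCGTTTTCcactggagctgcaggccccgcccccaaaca
IFIT1: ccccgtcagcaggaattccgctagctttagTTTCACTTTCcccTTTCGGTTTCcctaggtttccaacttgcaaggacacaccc
PARP9 and DTX3L, shared: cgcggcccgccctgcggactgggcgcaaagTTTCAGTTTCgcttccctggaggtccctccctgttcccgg

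Levels are the authors' normalized read counts, in which each library's counts are divided by its own size factor. In bulk RNA, fewer cells of a type and less RNA per cell cannot be told apart. The XPO1 transcript averaged 4345 ± 74.0 with XPO1 siRNA and 18809 ± 210 with control siRNA (SD, n = 3 each), a log2 fold change of -2.11 (SE 0.0311). With selinexor, which acts on the protein, XPO1 transcript averaged 19741 ± 3697, and with DMSO 18380 ± 507 (limma adjusted p = 0.623). Estimated depth was 26.9 to 33.8 M reads per selinexor library, 39.5 to 40.9 M with DMSO, 33.5 to 55.8 M with XPO1 siRNA and 40.6 to 54.0 M with control siRNA. Selinexor replicate 1 stood apart: on the log2 scale its correlation was 0.972 with replicate 2 and 0.973 with replicate 3, while that pair gave 0.987. The signal recognition particle RNAs RN7SL1 and RN7SL2 took 12.6% to 15.96% of the selinexor totals, 9.40% to 9.72% of the DMSO totals, 10.8% to 12.4% with XPO1 siRNA and 12.6% to 13.1% with control siRNA. Mitochondrial genes took 0.543% and 0.503% in selinexor replicates 2 and 3 and 0.272% in replicate 1, against 0.212% to 0.267% with DMSO, and 0.279% to 0.289% with XPO1 siRNA against 0.178% to 0.184% with control siRNA. Of 10 adrenergic neuroblastoma markers, 9 had a row in the selinexor table and 10 in the knockdown table, and their summed level was at least 76321 in every library. Of the 9 tested in each comparison, 6 rose with selinexor and 7 with knockdown, and none was called lower. Over all genes tested, 22.9% were called higher and 26.3% lower with selinexor, and 25.9% and 28.6% with knockdown. The noradrenaline synthesis gene TH was low, at a mean of 5.50 with XPO1 siRNA and 5.41 with control siRNA. Of 7 leukocyte markers only CD14 had a row, at 4.36 to 14.4 with selinexor, 3.61 to 5.29 with DMSO, 8.01 to 10.7 with XPO1 siRNA and 1.61 to 4.25 with control siRNA.

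With selinexor 7 of the 9 genes were higher than with DMSO and IFI44L was lower, while IFIT1 did not pass the test. ISG15 had the largest rise, 3.72-fold, and IFI44L fell 3.42-fold. With XPO1 siRNA 5 genes rose and 2 fell relative to control siRNA, and ISG15 and IFI6 did not pass. STAT2, IRF9, HERC5, PARP9 and DTX3L were called upward in both comparisons, and IFI44L downward in both. The share of all genes called the same way in both comparisons was not computed, so no count is set against it. The test was limma on log2(value + 1) across all genes with a mean of at least 10, and calls were made at a Benjamini-Hochberg adjusted p under 0.05. It called 49.2% of 18128 genes with selinexor (22.9% higher and 26.3% lower) and 54.5% of 17616 with knockdown (25.9% higher and 28.6% lower). The members' median log2 fold change was 0.48 with selinexor, against -0.0076 over all genes tested, and 0.45 with knockdown, against 0.0024. The members were chosen with earlier results of these data known, so setting them beside all genes is not an independent comparison. Groups did not overlap for 8 members with selinexor (7 higher and 1 lower), against 61.7% of all genes (28.8% higher and 32.9% lower), and for 7 with knockdown (5 higher and 2 lower), against 60.4% (29.2% higher and 31.2% lower). Because 1 was added before taking logarithms, fold changes of low genes are understated.

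**Figure D1:**
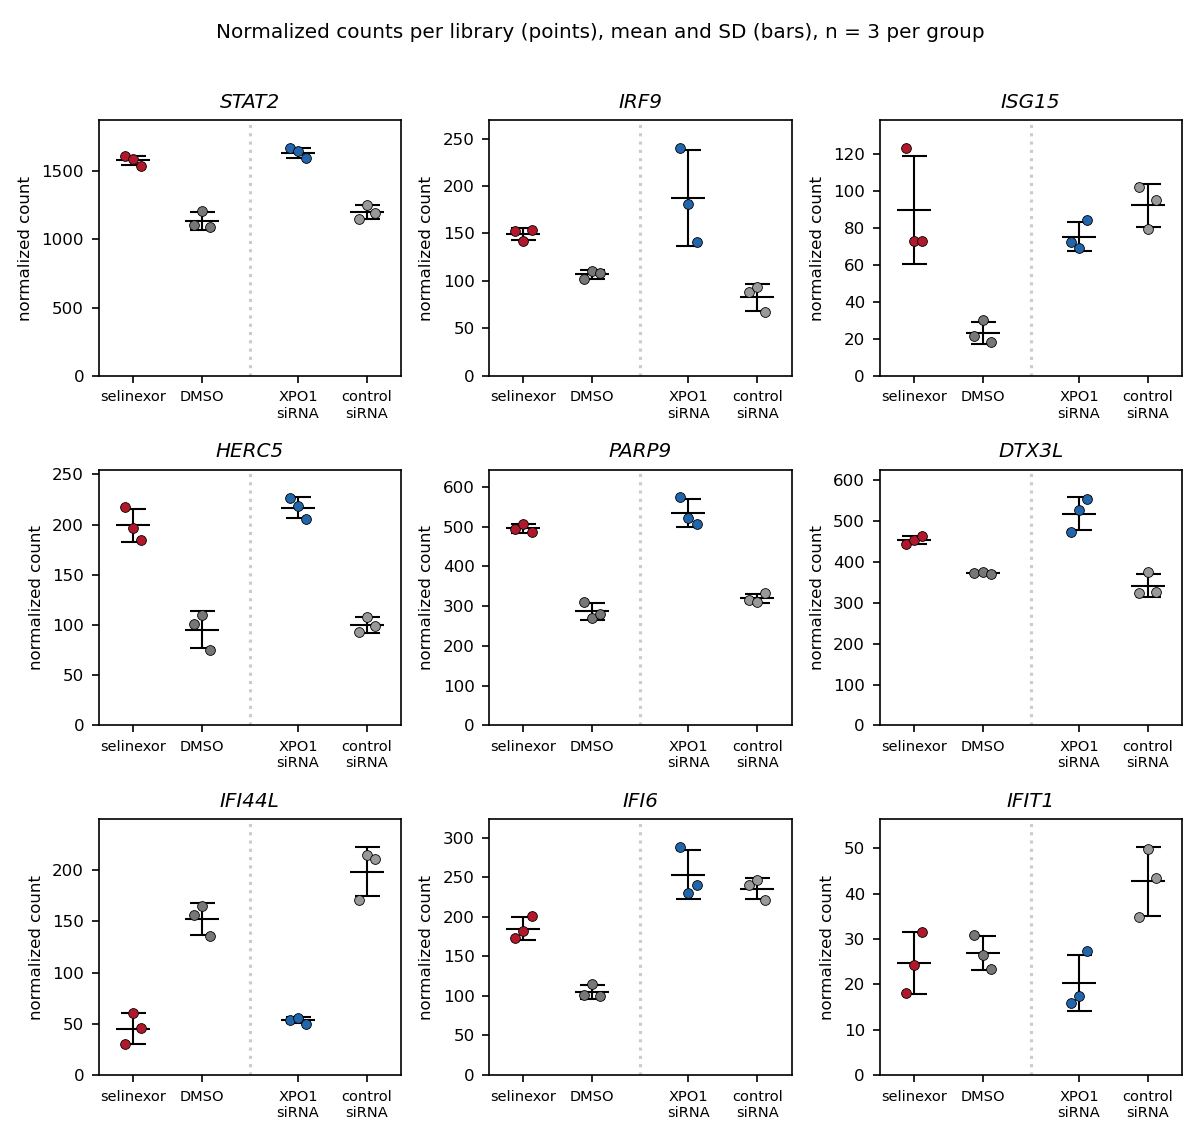
Normalized count (linear axis from 0) of each gene in each library (points), with the group mean and SD (bars, n = 3), by group; the dotted line separates the 2 tables, which were normalized separately. STAT2, IRF9, HERC5, PARP9 and DTX3L lie higher in both treated groups than in their controls, IFI44L lies lower in both, and ISG15 is higher in the selinexor libraries than in the DMSO libraries while its siRNA groups overlap.

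STAT2 and IRF9, the members that belong to the ISGF3 complex, were higher in both comparisons. STAT2 (hg19 chromosome 12, 56735381 to 56753940, minus strand) read 1608, 1585 and 1541 in the selinexor libraries, against 1106, 1208 and 1090 in the DMSO libraries. Its log2 fold change was 0.48 (SE 0.0819, limma adjusted p = 0.00175). In the knockdown table STAT2 read 1667, 1644 and 1593 with XPO1 siRNA, against 1151, 1253 and 1193 with control siRNA. That gave 0.45 on the log2 scale (SE 0.0463, limma adjusted p = 2.54e-06). The groups did not overlap in either table, and the increase was 1.39-fold with selinexor and 1.36-fold with knockdown. IRF9 (chromosome 14, 24630262 to 24635775, plus strand), the DNA-binding subunit of ISGF3, read 153, 142 and 154 with selinexor, against 102, 111 and 109 with DMSO. It read 241, 181 and 141 with XPO1 siRNA, against 87.8, 93.2 and 66.8 with control siRNA. The XPO1 siRNA libraries were widely spread, yet the lowest of them was above the highest control. The log2 fold change of IRF9 was 0.48 with selinexor (SE 0.120, limma adjusted p = 0.0113) and 1.15 with knockdown (SE 0.182, limma adjusted p = 0.00012). Without DMSO replicate 1 the selinexor call of IRF9 was lost (log2 fold change 0.44, limma adjusted p = 0.0508). A transcript named after a genomic clone covers all of IRF9 on the same strand, so reads may have been split between them. It averaged 129 ± 25.0 with selinexor against 87.1 ± 8.61 with DMSO, and 93.7 ± 13.5 with XPO1 siRNA against 72.4 ± 31.2 with control siRNA. A row of SNORA79 on the opposite strand also covers all of IRF9.

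ISG15 and HERC5 encode a modifier and the ligase that attaches it, and both rose with selinexor, while HERC5 alone of the pair was called with knockdown. ISG15 (chromosome 1, 948803 to 949921, plus strand) read 124, 72.9 and 73.1 with selinexor, against 21.5, 30.0 and 18.1 with DMSO. Every selinexor library was above every DMSO library, and selinexor replicate 1 was the highest. The log2 fold change was 1.89 (SE 0.280, limma adjusted p = 0.000806). In the knockdown table ISG15 read 72.6, 69.2 and 84.5 with XPO1 siRNA, against 102, 79.6 and 95.1 with control siRNA. These groups overlapped, with a log2 fold change of -0.29 (95% interval -0.61 to 0.039, limma adjusted p = 0.126). HERC5 (chromosome 4, 89378268 to 89427315, plus strand) read 217, 197 and 184 with selinexor, against 101, 110 and 74.9 with DMSO. It read 227, 218 and 206 with XPO1 siRNA, against 92.6, 108 and 99.1 with control siRNA. It rose in both comparisons, 2.10-fold with selinexor (log2 fold change 1.07, SE 0.168, limma adjusted p = 0.00111) and 2.16-fold with knockdown (log2 fold change 1.11, SE 0.108, limma adjusted p = 1.44e-06).

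PARP9 and DTX3L encode partner proteins, an ADP-ribosyltransferase family member and a ubiquitin ligase. PARP9 (chromosome 3, 122246771 to 122283425, minus strand) read 493, 507 and 486 with selinexor, against 311, 270 and 280 with DMSO. With XPO1 siRNA it read 574, 522 and 505, against 316, 311 and 333 with control siRNA. The rise was 1.73-fold with selinexor (log2 fold change 0.79, SE 0.0985, limma adjusted p = 0.000339) and 1.67-fold with knockdown (log2 fold change 0.74, SE 0.0715, limma adjusted p = 1.44e-06). DTX3L (chromosome 3, 122283085 to 122294051, plus strand) read 444, 455 and 464 with selinexor, against 374, 376 and 371 with DMSO. It read 474, 527 and 554 with XPO1 siRNA, against 325, 376 and 327 with control siRNA. Its groups were apart in both tables, but its change with selinexor was the smallest of those called, 1.21-fold (log2 fold change 0.28, SE 0.0879, limma adjusted p = 0.0281), beside 1.51-fold with knockdown (log2 fold change 0.60, SE 0.0814, limma adjusted p = 3.22e-05). The selinexor call of DTX3L was lost when any library other than selinexor replicate 1 was left out, with a limma adjusted p of 0.0908 to 0.108 without 1 DMSO library and of 0.0550 and 0.0679 without selinexor replicate 2 or 3. The rows of PARP9 and DTX3L overlap by 341 bases on opposite strands. The use of strand in counting is not given in the sources used here, so reads in that overlap cannot be assigned to either gene.

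IFI44L, IFI6 and IFIT1 are outputs of the pathway, and each behaved differently. IFI44L (chromosome 1, 79085607 to 79111831, plus strand), whose product has been described as a feedback regulator of interferon responses, read 30.0, 60.2 and 45.8 with selinexor, against 156, 165 and 135 with DMSO. It read 54.0, 56.1 and 50.004 with XPO1 siRNA, against 171, 214 and 210 with control siRNA. Every treated library was below every control library of its table. The fall was 3.42-fold with selinexor (log2 fold change -1.78, SE 0.245, limma adjusted p = 0.000562) and 3.65-fold with knockdown (log2 fold change -1.87, SE 0.134, limma adjusted p = 7.69e-08). A row of SNORA26 on the opposite strand covers all of IFI44L. IFI6 (chromosome 1, 27992572 to 27998730, minus strand), which encodes an anti-apoptotic membrane protein, read 173, 182 and 201 with selinexor, against 101, 116 and 100.2 with DMSO. That was a rise of 1.75-fold (log2 fold change 0.81, SE 0.129, limma adjusted p = 0.0012). With XPO1 siRNA it read 289, 231 and 240.5, against 240.0, 246 and 221 with control siRNA, and the groups overlapped (log2 fold change 0.10, 95% interval -0.12 to 0.31, limma adjusted p = 0.429). IFIT1 (chromosome 10, 91152303 to 91163746, plus strand) had the lowest mean of the 9 in each table, with an estimated 15 to 54 reads per library. In the DMSO group alone ISG15 was lower, at a mean of 23.2 against 27.0 for IFIT1. It read 18, 24.3 and 31.6 with selinexor, against 30.9, 26.5 and 23.5 with DMSO. Those groups overlapped, with a log2 fold change of -0.15 (95% interval -0.78 to 0.48, limma adjusted p = 0.671). With XPO1 siRNA it read 15.9, 17.5 and 27.4, against 34.7, 49.9 and 43.5 with control siRNA, and it fell 2.09-fold (log2 fold change -1.06, SE 0.263, limma adjusted p = 0.00366). IFIT1 has close paralogs with which reads may be shared, and the row of LIPA on the opposite strand covers it. LIPA gave a log2 fold change of -0.17 (limma adjusted p = 0.411) with selinexor and -0.29 (limma adjusted p = 0.000134) with knockdown.

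**Figure D2:**
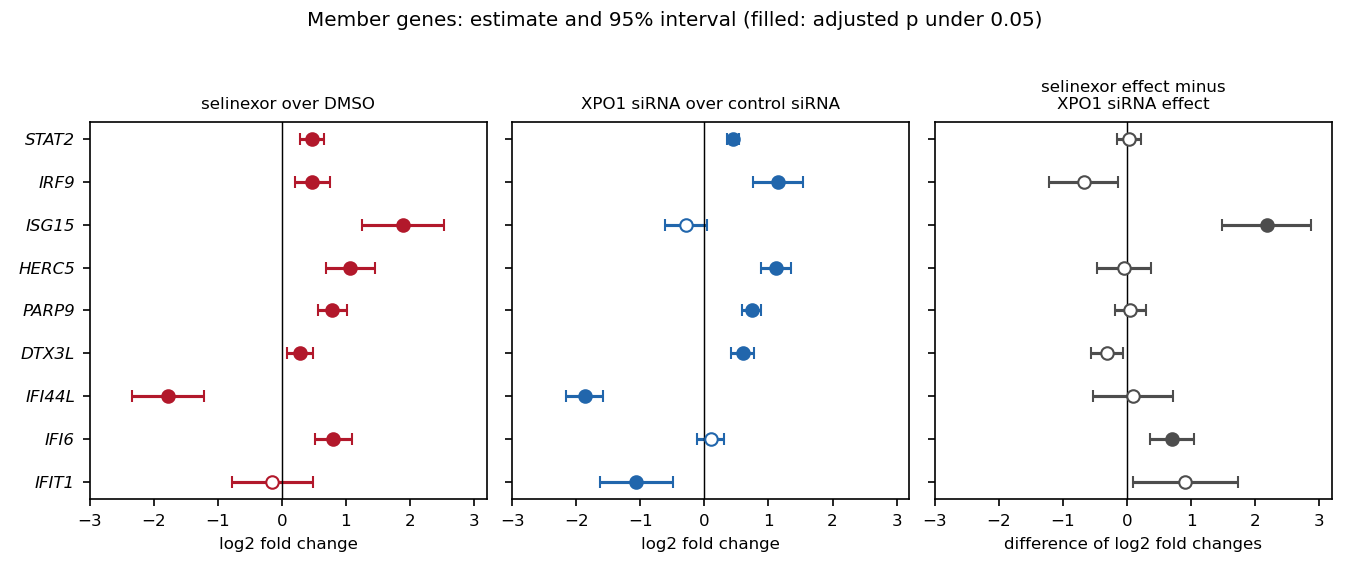
Log2 fold change of each gene with its 95% interval for selinexor over DMSO (left) and XPO1 siRNA over control siRNA (middle), and the difference of these effects (right); filled points have a limma adjusted p under 0.05. ISG15 and IFI6 are the genes whose difference of effects was called, at 2.18 and 0.71, while the interval of the difference crosses 0 for STAT2, HERC5, PARP9 and IFI44L.

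The effects of selinexor and knockdown were compared in 1 limma fit over the 12 libraries, as the selinexor effect minus the XPO1 siRNA effect, each formed within its own table. Of 17864 genes, 30.9% were called (11.3% higher and 19.6% lower). Among the 9 members ISG15 and IFI6 were called, both with a larger effect of selinexor. For ISG15 the difference was 2.18 on the log2 scale (SE 0.323, limma adjusted p = 0.00027), and for IFI6 it was 0.71 (SE 0.158, limma adjusted p = 0.00458). IRF9 differed the other way by -0.68 (95% interval -1.21 to -0.14, limma adjusted p = 0.0539) and DTX3L by -0.32 (95% interval -0.57 to -0.064, limma adjusted p = 0.0559), and neither passed the threshold. IFIT1 gave 0.91 (95% interval 0.093 to 1.73, limma adjusted p = 0.0848). Without selinexor replicate 1 these 3 passed as well, at a limma adjusted p of 0.0318 for IRF9, 0.0388 for DTX3L and 0.0259 for IFIT1. IRF9 and DTX3L also passed without control siRNA replicate 2 (0.0495 and 0.0301), DTX3L without XPO1 siRNA replicate 1 (0.0367), and IRF9 and IFIT1 without XPO1 siRNA replicate 3 (0.0140 and 0.0410). For the 4 remaining genes the intervals of the difference ran from -0.16 to 0.22 for STAT2, -0.19 to 0.30 for PARP9, -0.47 to 0.38 for HERC5 and -0.53 to 0.72 for IFI44L. The treatments also differ in duration and in the way cells were handled, which this difference includes.

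Selinexor replicate 1 set the call of none of the 9 genes in the comparison with DMSO. Without it the log2 fold change was -1.51 for IFI44L, 1.64 for ISG15, 1.01 for HERC5, 0.85 for IFI6 and 0.79 for PARP9. It was 0.46 for STAT2, 0.46 for IRF9 and 0.30 for DTX3L, all with a limma adjusted p of at most 0.00825, and 0.048 for IFIT1 (limma adjusted p = 0.894). The shares of RN7SL1 and RN7SL2 and of mitochondrial genes in the library totals moved with the groups, and the part of the mitochondrial share was not tested. With libraries rescaled to equal totals the same 8 and 7 genes were called as before, in the same directions. Over all genes that rescaling turned the split with selinexor to 4644 higher and 4175 lower, in place of 4146 and 4774, and the split with knockdown to 6057 higher and 3647 lower, in place of 4561 and 5042. The part of the neuroblastoma, fibroblast and endothelial markers and of CD14 in these results was not tested. Of 4 endothelial markers, CDH5 and KDR had a row. Their summed level was 66.6 to 91.2 with selinexor against 41.3 to 44.2 with DMSO, and 78.6 to 93.8 with XPO1 siRNA against 41.4 to 53.2 with control siRNA. CDH5 rose in both (log2 fold change 1.04 and 1.17, limma adjusted p = 0.00365 and 6.08e-05), while KDR was not called, at 0.52 with selinexor and -0.61 with knockdown (limma adjusted p = 0.239 and 0.227). Of 5 fibroblast markers, those with a row summed to 930 to 1945 with selinexor against 1163 to 1315 with DMSO, and to 1421 to 1458 with XPO1 siRNA against 1707 to 1981 with control siRNA. LUM fell by 1.72 on the log2 scale with selinexor and by 1.30 with knockdown (limma adjusted p = 0.00934 and 0.000806), and PDGFRB fell by 0.74 and 0.39 (limma adjusted p = 0.000372 and 9.35e-05). COL1A1, which makes up most of the sum, had a log2 fold change of 0.41 with selinexor (limma adjusted p = 0.295) and fell by 0.30 with knockdown (limma adjusted p = 0.00168). COL1A2, too low to be tested, averaged 3.62 ± 2.14 with selinexor and 9.16 ± 3.795 with DMSO, in groups that did not overlap.

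**Figure D3:**
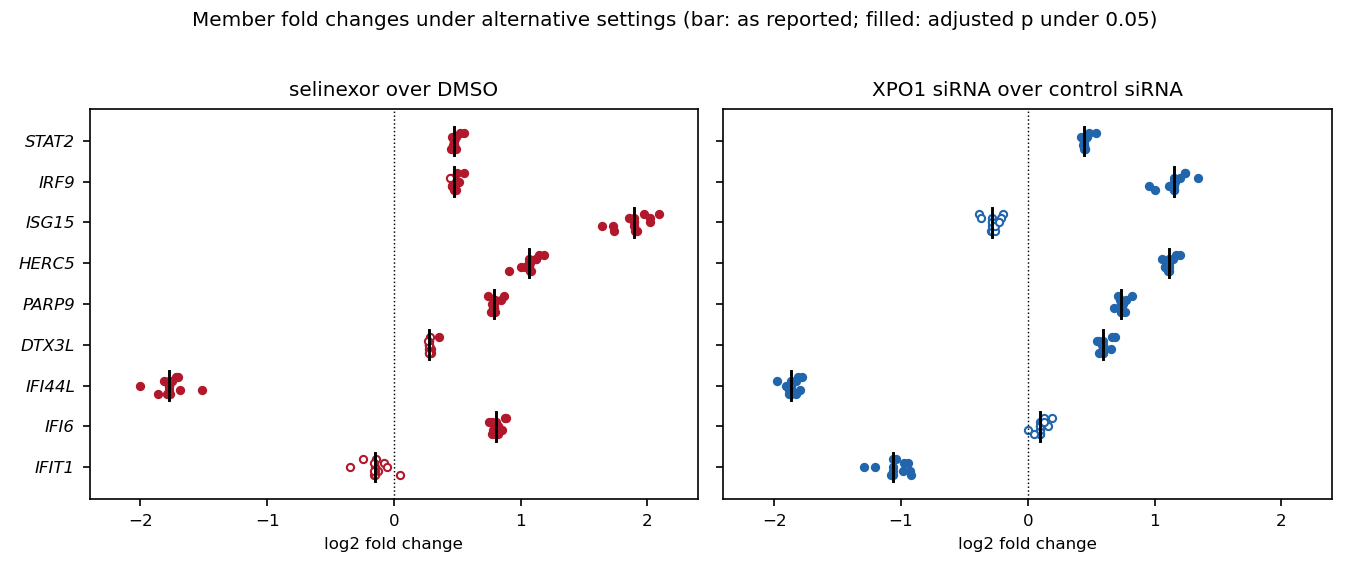
Log2 fold change of each gene under every alternative setting (points; filled where the limma adjusted p was under 0.05) and as reported (bar), for selinexor over DMSO (left) and XPO1 siRNA over control siRNA (right). DTX3L with selinexor sits at 0.27 to 0.36 with open points among them, while ISG15, between 1.64 and 2.09 with selinexor, stays filled.

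Per kilobase of merged exons (GENCODE 29 by symbol), STAT2 had the highest level and IFIT1 the lowest in all 4 groups. The mean normalized count per kb of STAT2 was 465 ± 10.1 with selinexor, 335 ± 18.8 with DMSO, 482 ± 11.1 with XPO1 siRNA and 353 ± 15.1 with control siRNA (SD, n = 3 each). IFI6 came next in every group, at 214 ± 16.5 with selinexor, 122 ± 10.2 with DMSO, 293 ± 35.8 with XPO1 siRNA and 273 ± 15.3 with control siRNA. In DMSO cells HERC5 (26.6 ± 5.12 per kb), IFI44L (25.9 ± 2.59) and ISG15 (24.6 ± 6.54) lay within each other's spread. In selinexor cells they were apart, with ISG15 at 95.5 ± 31.0 per kb, HERC5 at 55.5 ± 4.61 and IFI44L at 7.72 ± 2.58, while DTX3L (77.4 ± 1.68) and IRF9 (76.0 ± 3.38) were not separated. With XPO1 siRNA, IRF9 (95.3 ± 25.6 per kb), DTX3L (88.3 ± 6.91) and ISG15 (80.2 ± 8.58) overlapped. With control siRNA, ISG15 (98.1 ± 12.2 per kb) was above DTX3L (58.4 ± 4.91), and IRF9 (42.0 ± 7.09) and PARP9 (40.8 ± 1.44) were not separated. IFIT1 was at 5.34 ± 1.48 per kb with selinexor, 5.85 ± 0.816 with DMSO, 4.39 ± 1.35 with XPO1 siRNA and 9.26 ± 1.65 with control siRNA.

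The control groups did not start from the same level for every gene. Expressed per 1000000 of each library's deposited total, ISG15 was at 2.14 ± 0.270 in control siRNA cells and 0.650 ± 0.165 in DMSO cells, a ratio of 3.29. Its level was 2.69 ± 0.994 with selinexor and 1.86 ± 0.226 with XPO1 siRNA, so the DMSO group was the one with a low ISG15 level. IFI6 was at 5.46 ± 0.341 in control siRNA cells and 2.96 ± 0.211 in DMSO cells, a ratio of 1.85, beside 5.49 ± 0.484 with selinexor and 6.24 ± 0.689 with XPO1 siRNA. For the 7 other genes the ratio of control siRNA to DMSO lay between 0.637 for IRF9 and 1.31 for IFIT1. These levels are set across tables that were normalized separately and were not tested. The effects of nucleofection, of the control siRNA, of time and of DMSO cannot be told apart here.

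The remaining genes of the pathway were taken from lists by role, some of which share genes. These lists too were chosen with earlier results of these data known. Their counts stand beside 22.9% higher and 26.3% lower of all genes with selinexor, and 25.9% and 28.6% with knockdown. None of the 13 interferon ligand symbols listed was among the rows analysed. Of 8 tested receptors and kinases, 1 rose and 3 fell with selinexor, and 2 rose and 4 fell with knockdown. The type II receptor subunit gene IFNGR2 was at 696 ± 143 with selinexor against 1032 ± 38.0 with DMSO, and at 1138 ± 44.1 with XPO1 siRNA against 1488 ± 29.9 with control siRNA (limma adjusted p = 0.0114 and 9.31e-06). IFNAR2, the signalling subunit of the type I receptor, was at 182 ± 22.1 with selinexor against 255 ± 9.79 with DMSO, and at 219 ± 28.9 with XPO1 siRNA against 275 ± 18.3 with control siRNA (limma adjusted p = 0.0116 and 0.0159). Its partner IFNAR1 had a log2 fold change of 0.30 with knockdown (limma adjusted p = 8.83e-05) and 0.050 with selinexor (limma adjusted p = 0.748). The kinase gene JAK1 rose 1.18-fold with selinexor (limma adjusted p = 0.0324) and 1.13-fold with knockdown (limma adjusted p = 0.0064). IL10RB, a receptor subunit shared by type III interferons, was lower with knockdown by 1.65-fold (limma adjusted p = 1.75e-05), and with selinexor its log2 fold change was -0.28 (limma adjusted p = 0.155).

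The list of STAT and IRF factors had 11 tested genes, with STAT2 and IRF9 included and also IRF2BP1 and IRF2BP2, which are not themselves STAT or IRF genes. Of the 11, 5 rose and 1 fell with selinexor, and 5 rose and 3 fell with knockdown. STAT3, which acts downstream of interleukin receptors, rose 1.55-fold with selinexor (limma adjusted p = 0.000339) and 1.57-fold with knockdown (limma adjusted p = 1.99e-09). IRF2BP2, a partner of the repressor IRF2, rose by 0.58 in each (limma adjusted p = 0.000735 and 1.5e-08).

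Among 11 tested sensors and adaptors 2 rose and 3 fell with selinexor, and 5 rose and 1 fell with knockdown. The DNA sensor gene IFI16 was at 29.5 ± 4.31 with selinexor against 91.3 ± 6.63 with DMSO (log2 fold change -1.60, limma adjusted p = 0.000202), and at 23.3 ± 5.36 with XPO1 siRNA against 20.7 ± 3.28 with control siRNA (limma adjusted p = 0.675). The adaptor gene TRAF3 fell 1.62-fold with selinexor and 1.21-fold with knockdown (limma adjusted p = 0.000572 and 0.000337). TICAM1, the adaptor of the sensor TLR3, rose 1.74-fold with selinexor (limma adjusted p = 0.0021) and had a log2 fold change of 0.080 with knockdown (limma adjusted p = 0.549). MAVS, the mitochondrial adaptor of RNA sensing, rose 1.31-fold with knockdown (limma adjusted p = 0.000682) and had a log2 fold change of 0.050 with selinexor (limma adjusted p = 0.656).

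The conjugation genes around ISG15 did not move as a block. Of 6 tested, ISG15 and HERC5 included, 3 rose and 1 fell in each comparison. HERC6, a paralog of HERC5, was at 75.7 ± 16.01 with selinexor against 34.1 ± 4.84 with DMSO, and at 73.7 ± 9.46 with XPO1 siRNA against 46.5 ± 6.47 with control siRNA (limma adjusted p = 0.00342 and 0.0063). The conjugating enzyme gene UBE2L6 rose 1.28-fold with knockdown (limma adjusted p = 0.000623) and had a log2 fold change of 0.032 with selinexor (limma adjusted p = 0.859). USP18, which removes ISG15 and blocks the type I receptor, was at 680 ± 30.0 with selinexor against 980 ± 21.0 with DMSO, and at 1267 ± 41.6 with XPO1 siRNA against 1476 ± 38.3 with control siRNA (limma adjusted p = 0.00116 and 0.000988). USP18 has a near-identical copy, USP41, so its reads may be shared.

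In the list of negative regulators, 1 of 8 rose and 3 fell with selinexor, and 1 rose and 2 fell with knockdown. SOCS1, an inhibitor of JAK kinases, was at 59.3 ± 2.35 with selinexor against 12.4 ± 3.88 with DMSO (log2 fold change 2.21, limma adjusted p = 0.000258), and at 43.2 ± 3.52 with XPO1 siRNA against 41.1 ± 8.35 with control siRNA (limma adjusted p = 0.741). SOCS3 moved the other way, at 26.6 ± 7.71 with selinexor against 76.4 ± 7.99 with DMSO (log2 fold change -1.52, limma adjusted p = 0.00111), and 19.1 ± 2.34 with XPO1 siRNA against 19.1 ± 8.03 with control siRNA. The phosphatase gene PTPN11 fell 1.41-fold with selinexor (limma adjusted p = 0.000823) and had a log2 fold change of -0.072 with knockdown (limma adjusted p = 0.125). PIAS4 rose by 0.15 on the log2 scale with knockdown (limma adjusted p = 0.0304), beside 0.17 with selinexor (limma adjusted p = 0.133).

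Of 51 further interferon-stimulated genes listed, only 25 had a row in the selinexor table and 21 in the knockdown table. With selinexor 20 were tested, of which 7 rose and 5 fell, beside 22.9% and 26.3% of all genes. Their median log2 fold change was 0.30, against -0.0076 over all genes. With knockdown, tests covered 21 of them, of which 5 rose and 3 fell, beside 25.9% and 28.6% of all genes, with a median of 0.18 against 0.0024. The 8 called of 21 are a smaller share than the 54.5% of all genes called. IFI44, the neighbouring paralog of IFI44L, was lower in both, at 298 ± 43.8 with selinexor against 484 ± 23.5 with DMSO and at 437 ± 16.4 with XPO1 siRNA against 766 ± 45.5 with control siRNA (limma adjusted p = 0.0021 and 2.03e-07). PLSCR1, which encodes a phospholipid scramblase, fell 2.13-fold and 1.54-fold (limma adjusted p = 3.97e-05 and 4.24e-07). Called upward in both comparisons were HELZ2, LGALS3BP, PML, RNF213 and ZNFX1, and called downward in both were IFI44, IFIT5 and PLSCR1. Here too the share of all genes called the same way in both was not computed. Among 18 tested PARP and DTX relatives, PARP9 and DTX3L included, 6 rose and 4 fell with selinexor, and 7 rose and 4 fell with knockdown. PARP6 rose by 0.53 on the log2 scale in each (limma adjusted p = 0.000743 and 7.3e-08), and PARP2, a DNA damage sensor, fell by 1.41 and 0.60 (limma adjusted p = 1.76e-05 and 2.19e-07). TIPARP fell by 0.52 and 0.40 (limma adjusted p = 0.0282 and 2.15e-05). DTX3 rose by 0.42 with knockdown (limma adjusted p = 8.94e-07), beside 0.12 with selinexor (limma adjusted p = 0.345).

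**Figure D4:**
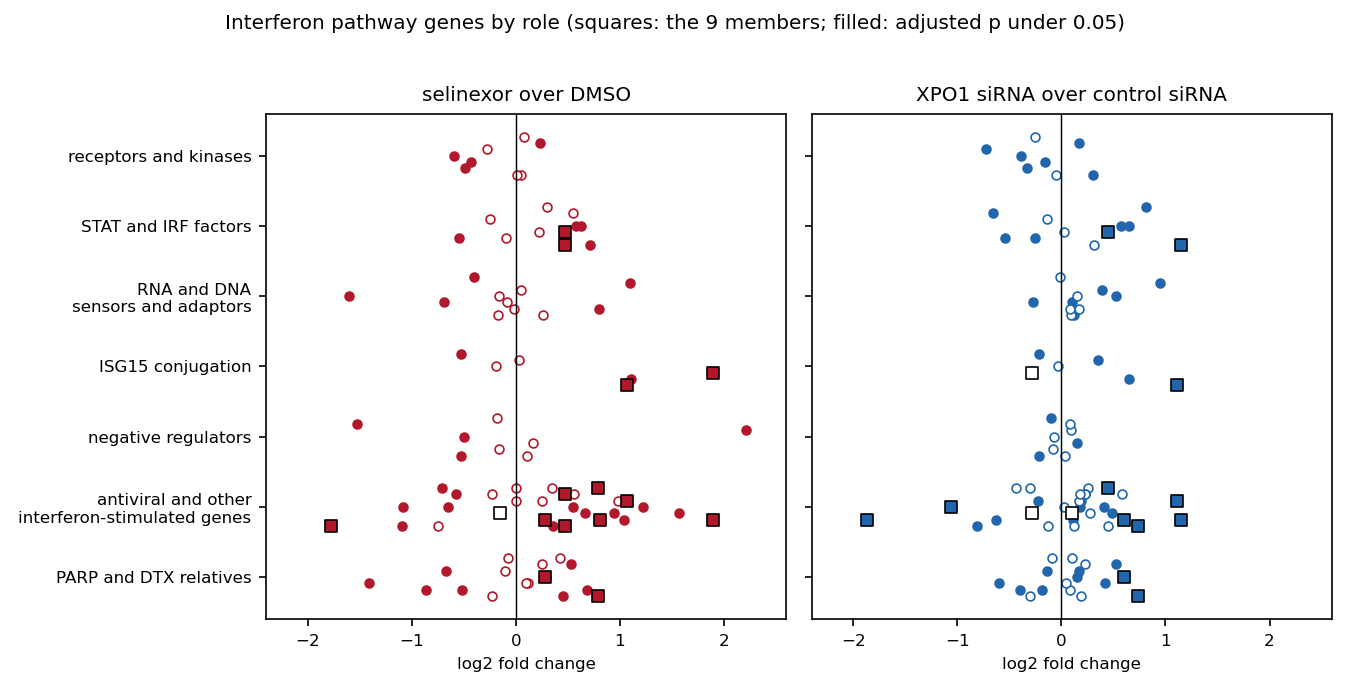
Log2 fold change of each tested gene of the interferon pathway, by role, for selinexor over DMSO (left) and XPO1 siRNA over control siRNA (right); squares are the 9 genes followed here, circles the others, and filled marks have a limma adjusted p under 0.05. Each role holds genes on both sides of 0, and IFI44L, at -1.78 and -1.87, is the lowest square in both panels.

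Genes whose profile lay closest to each member were found by the root mean square difference in log2(value + 1), centred on the control group of each table, over 12 libraries and about 11660 genes that averaged 100 or more in both tables. For PARP9 they were AKNAD1, CDC42EP3 and NUAK1, at 0.0773 to 0.0832. For DTX3L they were CCDC144B, C9orf3 and TET2, at 0.0719 to 0.0781. The profile of DTX3L was nearer to STAT2 (rank 187) than to its neighbour PARP9 (rank 2175), and seen from PARP9, DTX3L ranked 894. HERC5 lay closest to GOLGA8B, NEUROD2 and PPP1R15A (0.140 to 0.146), IFI6 to DDIT3, PPARA and NPC2 (0.0968 to 0.104), and IRF9 to ZNF767, SSTR2 and SYNPO2 (0.181 to 0.209). ISG15 had FMNL1, SLC24A2 and TM7SF2 nearest (0.209 to 0.322), IFI44L had HIST1H4J, PIR and ETS1 (0.279 to 0.295), and IFIT1 had GXYLT2, HMCN1 and BNIP3 (0.255 to 0.262). No other member was among the 3 nearest genes of any of these 8.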

How the data were processed

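RNA of 12 libraries of the IMR5 cell line, 3 per group, was sequenced from strand-specific total RNA libraries, per the labels' protocols. The submitters' processing notes list STAR 2.7.3a, Partek, DESeq2 and build hg19. Annotation, counting options and use of strand: not given in the sources used here. What the authors deposited is a normalized signal, in which the counts of a library are divided by its size factor. Each of the 2 tables was normalized on its own, so no test sets raw levels of one against the other. Groups and replicate numbers came from the sample titles. The knockdown table held 3 further columns of values that match no sample used here, and these were not used. In it, 25 symbols turned into dates were restored from coordinates; none was a member.

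The spacing of low values (0.3 to 60) gave an estimate of depth. Multiples of that spacing, within 0.02, made up 62.0% to 66.8% of them against 4% by chance, so whole reads were not recovered and no count model was fitted.

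Genes with a mean of 10 or more over the libraries fitted entered the test (R 4.3.3, limma 3.58.1, trended eBayes, two-sided) after log2(value + 1), adjusting by Benjamini-Hochberg over all genes tested and calling at 0.05. The group was the only term. The fits were tested on simulated data. There, every library had the same noise and only genes of higher level were changed. Low genes and a library that stands apart are therefore not covered by that test. Other steps ran in Python 3.11.15 (numpy 2.4.6, pandas 2.3.3, matplotlib 3.10.9).

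The members and the gene lists were chosen with earlier results of these data known. Genes named were the 9 members, XPO1, up to 5 called genes per role list with the smallest adjusted p, and the 3 genes nearest in profile to each member with an absolute log2 fold change of at least 0.58. Where no gene of a list was called, up to 2 with the highest mean could be named. Some genes that this rule selects are not reported here. Alternatives were: a pseudocount of 5 or 0.5; a minimum mean of 50, or none; equalized library totals, or a trimmed mean (30%) as the scale; no trend; a replicate block; and leaving out each replicate.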

Additional observations from a re-analysis of the deposited data

Results flagged for a closer look

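A test of the difference between the effects of selinexor and of XPO1 siRNA picked out ISG15 and IFI6 among the 9 genes. For ISG15 the selinexor effect minus the XPO1 siRNA effect was 2.18 on the log2 scale, and it was between 1.93 and 2.37 with a limma adjusted p of at most 0.00146 under the 20 alternatives. For IFI6 it was 0.71, between 0.64 and 0.81 with a limma adjusted p of at most 0.0161. Every selinexor library was above every DMSO library for both genes, while their XPO1 siRNA and control siRNA libraries overlapped. The controls of both genes did not start from the same level. Relative to each library's deposited total, the ratio of control siRNA to DMSO was 3.288 for ISG15 and 1.845 for IFI6. The tables were normalized separately, and the part of these unequal control levels in the difference of effects was not tested.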

How the results depend on the processing

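Of the 8 members called with selinexor, IFI44L, IFI6, ISG15, HERC5, PARP9 and STAT2 kept their direction and their call under all 14 alternatives, IRF9 under 13 and DTX3L under 8, and the 7 called with knockdown kept both under every alternative that gave a value. IFIT1 has no value at a mean of 50 or more. The number of genes called ran from 6540 to 11113 with selinexor, from 8428 to 9148 with knockdown and from 4330 to 7622 for the difference of effects when 1 library was left out, and the members called from 6 to 8, from 7 to 7 and from 2 to 5. At a mean of 50 or more 4 members were called for the difference of effects, with DTX3L and IRF9 (limma adjusted p = 0.0427 and 0.0487) added. The sign turned for 4 uncalled values when 1 library was left out: IFIT1 with selinexor (-0.34 to 0.048), and the differences of effects of HERC5 (-0.21 to 0.069), STAT2 (-0.0034 to 0.074) and IFI44L (-0.13 to 0.36). The cause was not tested.

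Deviations from the group mean had correlations from -0.104 to 0.119 between same-numbered libraries and from -0.0929 to 0.0914 between the others. With 3 libraries per group these values cannot decide whether the numbers pair the samples. With a replicate block 8671, 9321 and 5072 genes were called in place of 8920, 9603 and 5520, and 7, 7 and 3 members. DTX3L with selinexor then had a limma adjusted p of 0.0671 and the difference of effects of IRF9 0.0277. Depth limits IFIT1 most, with an estimated 15 to 54 reads per library, and ISG15 in DMSO cells, with 20 to 34.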

Other observations

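Of 20 further interferon-stimulated genes tested for the difference between the effects of selinexor and XPO1 siRNA, 5 were called higher, 2 lower and 13 not. Over all genes 30.9% were called (11.3% higher and 19.6% lower). The share called in either direction is near that of all genes. By direction, more of the 20 were called higher than lower, the reverse of all genes, and this was not tested. The genes that follow were chosen from those called after their values were seen. ISG20, which encodes an exonuclease, was at 86.0 ± 10.6 with selinexor against 29.3 ± 9.64 with DMSO, and at 69.5 ± 15.1 with XPO1 siRNA against 67.3 ± 4.84 with control siRNA (SD, n = 3 each), and the difference of its effects was 1.54 on the log2 scale (SE 0.323, limma adjusted p = 0.00305). HELZ2, a helicase gene, was at 789 ± 228 with selinexor against 331 ± 36.1 with DMSO, and at 554 ± 19.6 with XPO1 siRNA against 488 ± 38.1 with control siRNA, a difference of 1.03 (SE 0.215, limma adjusted p = 0.00288). RSAD2, which encodes the antiviral enzyme viperin, was at 14.5 ± 2.54 with selinexor against 31.7 ± 3.33 with DMSO, and at 22.3 ± 1.85 with XPO1 siRNA against 20.3 ± 6.02 with control siRNA, a difference of -1.25 (SE 0.360, limma adjusted p = 0.0191). From the lists of regulators and sensors, SOCS1 and IFI16 differed by 2.12 (limma adjusted p = 0.000306) and -1.75 (limma adjusted p = 0.000809). Control levels of these genes were unequal too. SOCS1 averaged 12.4 with DMSO and 41.1 with control siRNA, and IFI16 91.3 and 20.7. ISG20 and HELZ2 were also lower with DMSO than with control siRNA, and RSAD2 was higher. The control groups were normalized separately, and their differences were not tested.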
